A study of Mus musculus with 18 samples.

Results

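Conduction, sodium channel and connexin genes are described here as 8 listed genes, Scn4b, Fgf13, Hcn2, Hcn4, Gja1, Gjc1, Gja4 and Gja5, taken from the 30583 genes of the deposited count table by their mouse symbols. All 8 passed the filter on low counts. RNA was sequenced from myocardium of 18 male mice aged 12 weeks, labelled C57BL/6JR, with 1 library per mouse and 3 mice in each of 6 groups. In 5 groups the left anterior descending coronary artery was tied to produce a myocardial infarction, and the mice were killed after 10 min or after 1, 6, 24 or 72 hours. The sham group, labelled 0 h, had the suture passed around the artery but not tied, so it is not matched to the later groups for time since surgery. Every mouse was anaesthetised with sodium pentobarbital for the operation and with isoflurane before death. The series title states that the study followed gene expression through the course of an infarction.

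The heartbeat spreads as an action potential. Voltage-gated sodium channels give its fast upstroke, HCN channels carry the depolarising pacemaker current, and connexins form the gap junctions through which current passes from cell to cell. Connexins are also found between endothelial and smooth muscle cells of vessels, so their RNA in myocardial tissue need not come from cardiomyocytes.

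The source was myocardium from the region of the infarct in the left ventricle, and the cell type label reads Cardiomyocytes. The marker genes showed a mixed tissue: in sham, 10 cardiomyocyte markers summed to 52747 to 57631 TMM-scaled CPM in each library (CPM: counts divided by the library size in M, mega), and 10 pan-endothelial markers, 10 fibroblast markers and 10 macrophage and monocyte markers summed to 1455 to 1589, 2176 to 2467 and 306 to 349 CPM. Of 6 atrial markers, Bmp10 was at 0 counts in all sham libraries, and the 6 together reached at most 13.1 CPM there. In the library of 6 h replicate 1 they summed to 198.7 CPM, with Myl4 at 59.1, Myl7 at 49.3, Sln at 42.6 and Bmp10 at 21.2 CPM, against 10.5 and 9.69 CPM for the sum in the other 6 h libraries. That library stood apart from all others in these 4 genes. Each member's called difference of the 6 h group from sham, 10 min or 24 h is given with and without it. Differences between 72 h and 6 h are not given. At 72 h the sum was 31.5 to 34.7 CPM, of which Dkk3 made up 28.1 to 29.5 CPM. Of 9 conduction cell markers, the sinus node factor Isl1 was at 0 counts in sham. Among these markers 7 had a count in every sham library, and the 9 summed to 203 to 208 CPM there. Summed cardiomyocyte markers were 23873 to 35856 CPM at 24 h and 13460 to 18114 CPM at 72 h, and summed macrophage and monocyte markers were 3710 to 4794 CPM at 72 h. In bulk tissue, fewer cells of a type and less RNA per cell cannot be told apart. Libraries held 18.2 to 25.1 M counts, and the member counts per library lay between 105 and 14564. No library was left out.

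Promoter windows are shown for 4 members that were called lower at 72 h under TMM scaling (Gja1 under that scaling but not by library total) and had 1 window each in RefSeq (build GRCm38.p6), to let their base composition and motifs be compared. Each window runs from 250 bases before to 50 bases after a RefSeq start site, and 7 of the 8 members had at least 1 window (Gjc1 had none and Fgf13 had 4). Capitals mark a match on either strand to AP-1 (TGANTCA), TBX5 (AGGTGTNA), a TATA box (TATAAA), a GC box (GGGCGG), MEF2 or a CArG box. The Scn4b window is at chr9:45138374-45138673 (+), the Hcn2 window at chr10:79716384-79716683 (+), the Hcn4 window at chr9:58822699-58822998 (+) and the Gja1 window at chr10:56377050-56377349 (+).
Scn4b: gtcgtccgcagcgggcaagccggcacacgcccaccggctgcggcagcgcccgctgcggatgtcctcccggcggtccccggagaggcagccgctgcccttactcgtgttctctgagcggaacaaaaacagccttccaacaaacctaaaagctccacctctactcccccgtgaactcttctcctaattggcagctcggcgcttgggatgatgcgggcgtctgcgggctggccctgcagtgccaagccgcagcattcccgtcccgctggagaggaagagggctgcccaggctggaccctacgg
Hcn2: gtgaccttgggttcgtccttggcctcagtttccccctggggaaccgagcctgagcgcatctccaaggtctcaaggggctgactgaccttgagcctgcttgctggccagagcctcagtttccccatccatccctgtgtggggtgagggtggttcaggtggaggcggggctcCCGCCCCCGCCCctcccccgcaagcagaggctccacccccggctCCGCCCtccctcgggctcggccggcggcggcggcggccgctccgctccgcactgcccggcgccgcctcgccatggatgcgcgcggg
Hcn4: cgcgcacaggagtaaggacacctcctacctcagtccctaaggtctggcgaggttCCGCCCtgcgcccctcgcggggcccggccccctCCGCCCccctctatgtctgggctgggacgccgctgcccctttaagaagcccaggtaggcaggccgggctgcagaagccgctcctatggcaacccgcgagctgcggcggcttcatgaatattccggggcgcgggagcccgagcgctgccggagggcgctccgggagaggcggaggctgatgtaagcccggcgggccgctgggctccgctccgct
Gja1: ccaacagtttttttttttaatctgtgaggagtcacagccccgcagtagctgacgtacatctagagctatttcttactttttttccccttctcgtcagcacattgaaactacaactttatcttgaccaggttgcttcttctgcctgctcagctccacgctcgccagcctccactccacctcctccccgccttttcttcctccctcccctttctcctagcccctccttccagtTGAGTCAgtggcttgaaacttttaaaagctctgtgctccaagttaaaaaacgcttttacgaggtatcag
The windows of the pacemaker channel genes were the richest in G and C of these 4, at 72.3% for Hcn2 and 71.7% for Hcn4, with 66.3% for Scn4b and 47.7% for Gja1. The median over all 32851 windows of the table was 52.7%. The Hcn2 window held 3 GC boxes and the Hcn4 window 2, a motif that 35.7% of all windows hold. The Gja1 window held 1 AP-1 match, TGAGTCA, whose first base lies 19 bases before the start site, and 7.81% of all windows hold that motif. The Scn4b window held no match to any of the 6 motifs. A match here is a description of the letters and no evidence of binding, and its absence in this window says nothing about a factor.

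Against sham, Scn4b was called lower from 6 h, and Hcn2, Hcn4 and Fgf13 from 24 h. No connexin passed 0.44 in size on the log2 scale at any time under TMM scaling. With edgeR's quasi-likelihood test and Benjamini-Hochberg adjustment over 16311 genes, at an adjusted p under 0.05, 0 of the 8 members were called at 10 min and 0 at 1 h, where 0.0736% and 0.294% of all genes were called. At an unadjusted p under 0.05, Gja1 and Gjc1 passed at 10 min and no member passed at 1 h. The share of all genes passing that unadjusted threshold was not counted, so no conclusion is drawn from these 2. DESeq2 and limma also called 0 members at 10 min and 1 h. At 6 h 1 member was lower (Scn4b), where 12.2% of all genes were called lower. At 24 h 4 members were lower (Scn4b, Hcn2, Hcn4 and Fgf13), where 20.2% of all genes were called lower. At 72 h 6 members were lower, Gja1 and Gjc1 in addition, where 32.2% of all genes were called lower, but the direction of these 2 connexins depends on the scaling of the libraries (below, with the connexins). In this fit, with TMM scaling and the filter on low counts, no member was called higher than sham at any time. Under library total scaling Gja1 was called higher at 24 h, and Gja4 and Gja5 at 72 h. Of all 16311 genes, 7363 were called under it at 24 h and 11854 at 72 h, 75.5% and 79.9% of them higher. With cardiomyocyte marker scaling 5 members were called higher at 24 h (the 4 connexins and Fgf13) and 4 at 72 h (the connexins). That scaling called 11934 of the 16311 genes at 24 h and 14775 at 72 h, 97.6% and 98.9% of them higher. The median log2 fold change of the members was -0.11 after 6 h, -0.29 after 24 h and -1.0 after 72 h, and that of all genes tested was -0.01, 0.01 and 0.03. All 5 comparisons share the 3 sham libraries.

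**Figure D1:**
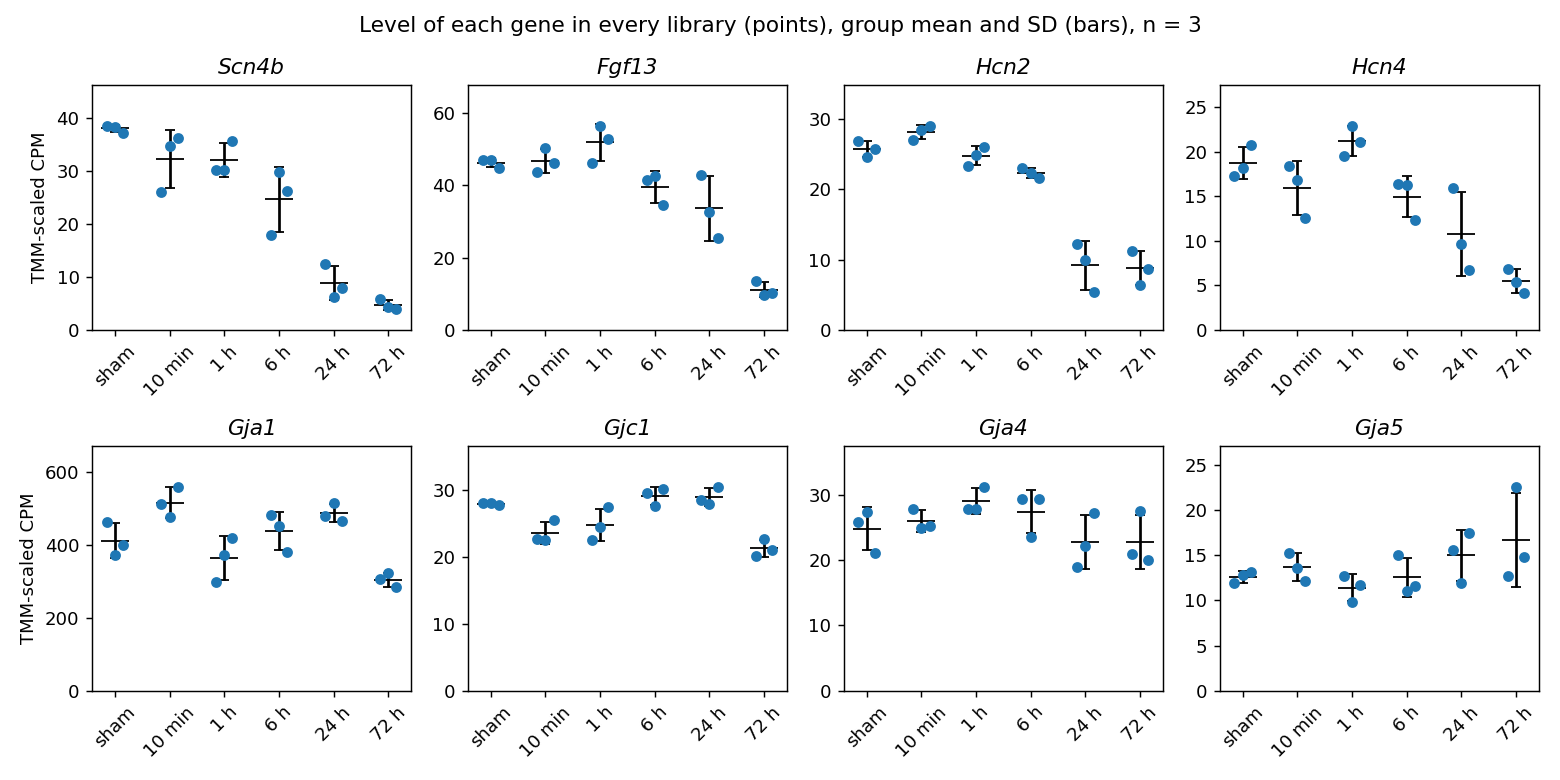
TMM-scaled CPM (vertical axis, from 0) of each of the 8 genes in every library (points), with group mean and SD (bars, n = 3), by group along the horizontal axis. The 3 points for Scn4b at 72 h lie at 3.95 to 5.77 CPM, below all other groups, whereas those for Gja4 lie within the range of the other groups.

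Scn4b encodes the beta-4 subunit of the voltage-gated sodium channel, a membrane protein that sets how the pore-forming subunit opens and closes. The gene (ENSMUSG00000046480) spans chr9:45138395-45154152 on the plus strand (GENCODE M21, GRCm38). Its level was 38.6, 38.4 and 37.3 CPM in the 3 sham libraries, 26, 34.7 and 36.2 CPM at 10 min, and 30.2, 30.3 and 35.7 CPM at 1 h. It was 17.9, 29.9 and 26.3 CPM at 6 h, 12.5, 6.3 and 7.89 CPM at 24 h, and 5.77, 4.41 and 3.95 CPM at 72 h. Every ligated library lay below the lowest sham library, and the 24 h and 72 h libraries lay below all earlier ones, with no overlap between 24 h and 72 h. At 6 h Scn4b fell by 0.62 on the log2 scale (SE 0.21, edgeR adjusted p = 0.0383), and this call was lost when any 1 sham library, 6 h replicate 1 or 6 h replicate 3 was left out, with a change of -0.44 (adjusted p = 0.17) without 6 h replicate 1, the library that carried atrial marker RNA. The part of that RNA in the 6 h result was not tested. At 24 h it fell by 2.1 (SE 0.23, adjusted p = 4.82e-06), which is 4.29-fold lower. At 72 h it fell by 3.01 (SE 0.23, adjusted p = 1.01e-08), which is 8.07-fold lower and the largest change among the members. The 24 h level was below the 6 h level by 1.48 on the log2 scale (adjusted p = 0.00025; -1.66, adjusted p = 0.000108, without 6 h replicate 1), and the 72 h level was below the 24 h level (log2 difference -0.91, adjusted p = 0.00386).

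Scn4b also held a smaller share of the sodium channel beta subunit RNA late in the course. Per kilobase of exon, which allows genes to be compared and does not depend on library scaling, Scn4b made up 36.0% ± 2.63 (SD, n = 3) of the summed level of the 4 beta subunit genes in sham. Its share was 33.4% ± 6.25 at 10 min, 33.6% ± 1.73 at 1 h, 29.6% ± 3.69 at 6 h, 12.6% ± 3.72 at 24 h and 4.29% ± 0.824 at 72 h. The 24 h shares (8.50 to 15.7%) and the 72 h shares (3.54 to 5.17%) lay below every sham share (33.5 to 38.7%).

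Relative to the cardiomyocyte markers, Scn4b was also lower. Its log2 ratio to the summed markers differed from sham by -1.30 at 24 h and -1.17 at 72 h, with all 3 libraries of each group below all sham libraries. With libraries scaled to those markers in the edgeR fit, a setting chosen after the data were seen, the change was -1.26 at 24 h (adjusted p = 7.04e-05) and -1.16 at 72 h (adjusted p = 5.82e-05). At 72 h Scn4b was then the 1 member called lower, where 98.9% of the genes called under that scaling were higher. Of the 10 cardiomyocyte markers themselves, 4 were called lower and 5 higher there, with a median log2 fold change of 0.30.

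Fgf13 encodes an intracellular fibroblast growth factor homologous factor, which binds the tail of sodium channels and modulates their gating and is not secreted. The gene (ENSMUSG00000031137) lies at chrX:59062145-59568071 on the minus strand. Its level was 47.1, 47.1 and 44.8 CPM in sham, 43.6 to 56.5 CPM in the 10 min and 1 h libraries, and 41.6, 42.7 and 34.5 CPM at 6 h. At 24 h it was 43, 32.5 and 25.3 CPM and at 72 h 13.5, 9.56 and 10.3 CPM. The 24 h libraries were spread widely, all below sham, and the 72 h libraries lay below every other library. At 24 h Fgf13 fell by 0.46 on the log2 scale (SE 0.15, edgeR adjusted p = 0.0216). This call was lost without sham replicate 1 or 2, or without 24 h replicate 2 or 3, with a change of -0.30 (adjusted p = 0.115) without 24 h replicate 3. It was also lost under library total scaling (-0.27, adjusted p = 0.137), in both limma fits, with only the 6 libraries compared and with pan-endothelial marker scaling. At 72 h it fell by 2.06 (SE 0.16, adjusted p = 5.01e-09), which is 4.16-fold lower, and the 72 h level was below the 24 h level by 1.59 on the log2 scale (adjusted p = 2.75e-07).

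Against the cardiomyocyte markers the Fgf13 pattern was smaller and changed sign. Its log2 ratio to the summed markers differed from sham by 0.36 at 24 h, with all 3 libraries above sham, and by -0.21 at 72 h, with all 3 below. In the edgeR fit scaled to those markers the changes were 0.36 (adjusted p = 0.0448) and -0.21 (adjusted p = 0.219). Among the 4 homologous factor genes, Fgf13 held 83.6% ± 1.40 of the summed level per kilobase in sham, 82.9% ± 2.34 at 24 h and 62.3% ± 3.11 at 72 h. Fgf11, a relative in the same family, held 12.3% ± 1.89 in sham and 29.3% ± 3.67 at 72 h, while its own level was 5.16 CPM in sham and 4.07 CPM at 72 h (log2 fold change -0.34, adjusted p = 0.164).

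**Figure D2:**
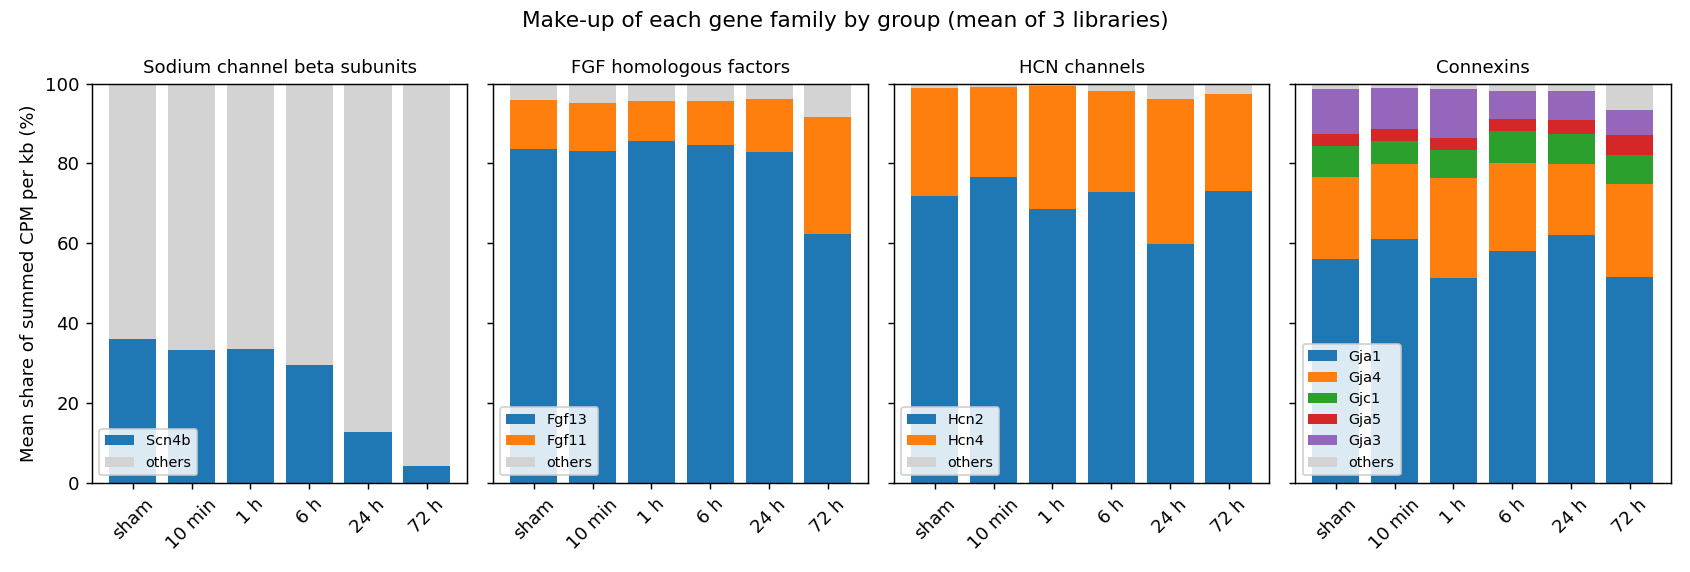
Mean share (vertical axis, %, n = 3 libraries) of each gene in the summed CPM per kilobase of its family, by group, for the 4 sodium channel beta subunit genes, 4 homologous factor genes, 4 HCN genes and 18 connexin genes. Shares do not depend on library scaling. Scn4b drops from 36.0% in sham to 4.29% at 72 h.

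Hcn2 and Hcn4 encode HCN channels, which open on hyperpolarisation and carry the pacemaker current. Hcn4 is the main form of the sinus node, and Hcn2 is the more abundant form of working ventricle. Per kilobase of exon, Hcn2 stood above Hcn4 in sham, at 8.06 ± 0.346 against 3.06 ± 0.297 CPM per kilobase. Together they made up 71.7% and 27.2% of the summed level of the 4 HCN genes.

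Hcn2 (ENSMUSG00000020331, chr10:79716634-79736108, plus strand) stood at 26.8, 24.6 and 25.8 CPM in sham, at 23.4 to 29 CPM in the 10 min and 1 h libraries, and at 23.1, 22.3 and 21.6 CPM at 6 h. It stood at 12.3, 9.94 and 5.41 CPM at 24 h and at 11.3, 6.45 and 8.62 CPM at 72 h. The 24 h and 72 h libraries overlapped each other, and all of them lay below every earlier library. Hcn2 fell by 1.47 on the log2 scale at 24 h (SE 0.21, edgeR adjusted p = 4.37e-05), which is 2.78-fold lower, and by 1.55 at 72 h (SE 0.21, adjusted p = 3.54e-06), which is 2.93-fold lower. The step from 6 h to 24 h was -1.27 (adjusted p = 0.000385; -1.24, adjusted p = 0.00154, without 6 h replicate 1), and that from 24 h to 72 h was -0.08 with a 95% interval from -0.51 to 0.36 (adjusted p = 0.79). Its log2 ratio to the cardiomyocyte markers differed from sham by -0.71 at 24 h, with all 3 libraries lower, and by 0.28 at 72 h, where the libraries overlapped sham. Scaled to those markers, Hcn2 was lower at 24 h (-0.68, adjusted p = 0.00138) and not called at 72 h (0.29, adjusted p = 0.111).

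Hcn4 (ENSMUSG00000032338, chr9:58823412-58863175, plus strand) measured 17.2, 18.2 and 20.7 CPM in sham, 12.6 to 22.9 CPM at 10 min and 1 h, and 16.3, 16.2 and 12.3 CPM at 6 h. It measured 15.9, 9.62 and 6.7 CPM at 24 h and 6.81, 5.42 and 4.17 CPM at 72 h. All 24 h libraries were below sham, and the highest 72 h library overlapped the lowest 24 h library. At 24 h Hcn4 fell by 0.80 on the log2 scale (SE 0.24, edgeR adjusted p = 0.0131). The call was lost without sham replicate 3, 24 h replicate 2 or 24 h replicate 3, with a change of -0.56 (adjusted p = 0.0541) without the last. It was also lost without the filter on low counts (-0.79, adjusted p = 0.0509), with only the 6 libraries compared (-0.80, adjusted p = 0.0589) and with pan-endothelial marker scaling (-0.51, adjusted p = 0.164). At 72 h it fell by 1.77 (SE 0.25, adjusted p = 7.52e-06), which is 3.42-fold lower, and the 72 h level was below the 24 h level by 0.98 on the log2 scale (adjusted p = 0.00343). Scaled to the cardiomyocyte markers, the change was -0.01 at 24 h and 0.07 (adjusted p = 0.759) at 72 h.

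The 24 h libraries differed among themselves in the same order for Hcn2, Hcn4 and Fgf13: replicate 1 was the highest and replicate 3 the lowest. Summed cardiomyocyte markers followed that order, at 35856, 33326 and 23873 CPM in replicates 1, 2 and 3. Scn4b did not, at 12.5, 6.3 and 7.89 CPM, with replicate 2 the lowest. The part of the cardiomyocyte markers in the 24 h results was not tested. Between the pacemaker genes, the log2 ratio of Hcn4 to Hcn2 was higher than sham by 0.68 at 24 h, with all 3 libraries above sham, and lower by 0.21 at 72 h, where the libraries overlapped. Hcn4 accordingly held 36.3% ± 3.72 of the HCN level per kilobase at 24 h and 24.2% ± 4.81 at 72 h.

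**Figure D3:**
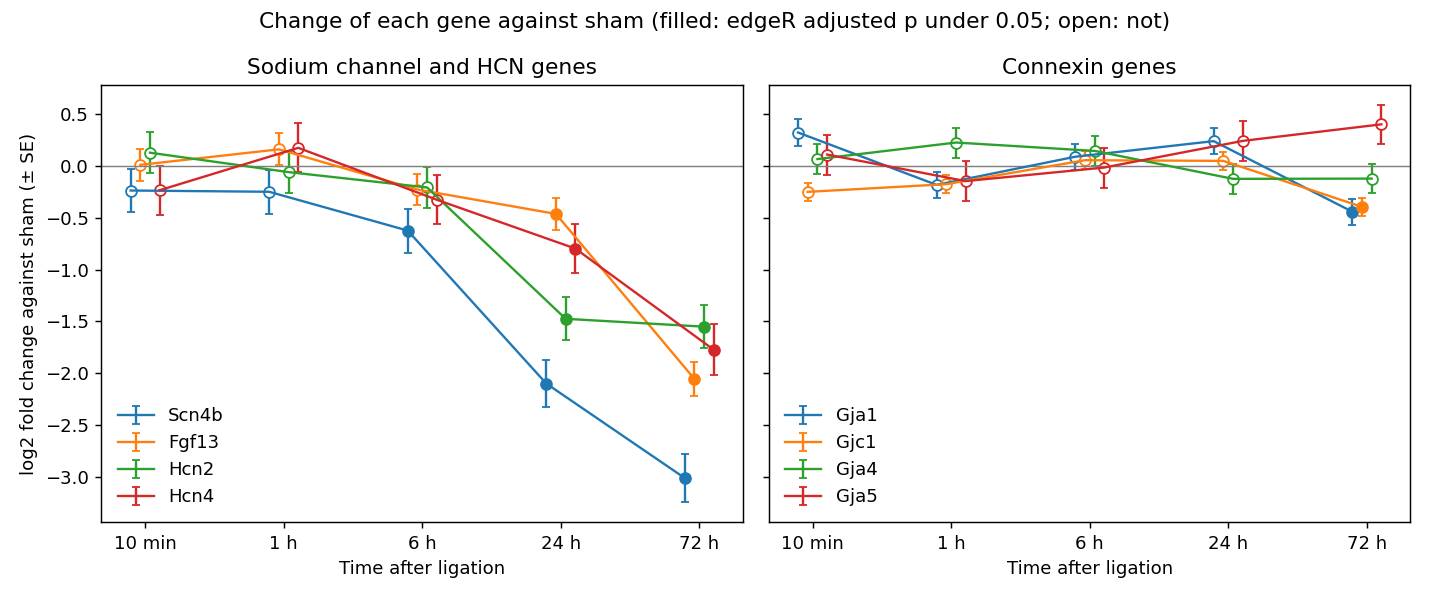
Log2 fold change against sham (vertical axis, ± SE from the edgeR fit with TMM scaling) at each time after ligation (horizontal axis), for the 4 sodium channel and HCN genes (left) and the 4 connexin genes (right). Filled points had an adjusted p under 0.05. Scn4b reaches -3.01 at 72 h, and the connexins stay between -0.44 and 0.40, where under library total scaling all 4 connexins lie above 0 at 72 h.

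Among the connexin genes, log2 changes from sham lay between -0.44 and 0.40 at all 5 times under TMM scaling, while all 4 were above 0 at 72 h under library total scaling. Gja1, the gene of connexin 43, is the main gap junction gene of working ventricle, and it was the most abundant connexin here per kilobase of exon. In sham it held 56.0% ± 3.61 of the summed level of 18 connexin genes, followed by Gja4 with 20.5% ± 2.46, Gja3 with 11.3% ± 1.01, Gjc1 with 7.83% ± 0.493 and Gja5 with 3.09% ± 0.362. At 72 h the shares were 51.5% ± 1.88 for Gja1, 23.3% ± 2.01 for Gja4, 7.40% ± 0.441 for Gjc1, 6.32% ± 0.800 for Gja3 and 4.99% ± 1.15 for Gja5. The 72 h shares of Gja5 (3.90 to 6.20%) lay above those in sham (2.68 to 3.38%), and those of Gja1 (49.4 to 52.9%) overlapped sham (51.9 to 58.7%).

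Gja1 (ENSMUSG00000050953, chr10:56377330-56402513, plus strand) measured 464, 372 and 399 CPM in sham, 511, 477 and 560 CPM at 10 min, and 298, 373 and 419 CPM at 1 h. It measured 482, 453 and 381 CPM at 6 h, 480, 515 and 466 CPM at 24 h, and 306, 322 and 283 CPM at 72 h. The 10 min and 24 h libraries lay above every sham library, the 72 h libraries below, and the 1 h and 6 h libraries overlapped sham. At 72 h Gja1 fell by 0.44 on the log2 scale under TMM scaling (SE 0.13, edgeR adjusted p = 0.00499), but the change was 0.15 (adjusted p = 0.309) under library total scaling and 1.44 (adjusted p = 3.02e-07) scaled to the cardiomyocyte markers. The 72 h level was below the 24 h level by 0.68 on the log2 scale under TMM (adjusted p = 0.000201). At 10 min the difference from sham was 0.33 (SE 0.13, adjusted p = 0.602, unadjusted p = 0.0188). At 24 h it was 0.24 under TMM (SE 0.13, adjusted p = 0.129). Other settings called Gja1 higher at 24 h, by 0.44 under library total scaling (adjusted p = 0.0088), by 0.43 with limma on log2(FPKM + 1) (adjusted p = 0.011), by 0.49 scaled to the pan-endothelial markers (adjusted p = 0.0198) and by 1.11 scaled to the cardiomyocyte markers (adjusted p = 3.65e-05). Under TMM, relative to 1 h the 24 h level was higher by 0.42 (adjusted p = 0.0113), a comparison in which 24.1% of all genes were called higher.

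Gjc1, the gene of connexin 45, belongs to the connexins of nodal tissue and early heart. It lies at chr11:102799579-102819700 on the minus strand (ENSMUSG00000034520). Its level was 28, 28.1 and 27.7 CPM in sham, 22.7, 22.5 and 25.5 CPM at 10 min, and 22.6, 24.4 and 27.4 CPM at 1 h. It was 29.6, 27.6 and 30.1 CPM at 6 h, 28.5, 27.9 and 30.5 CPM at 24 h, and 20.2, 22.7 and 21 CPM at 72 h. The 10 min, 1 h and 72 h libraries lay below every sham library, and the 6 h and 24 h libraries overlapped sham. At 72 h Gjc1 fell by 0.39 on the log2 scale under TMM scaling (SE 0.09, edgeR adjusted p = 0.000787), but the change was 0.19 (adjusted p = 0.0975) under library total scaling and 1.49 (adjusted p = 3.13e-07) scaled to the cardiomyocyte markers. At 10 min the difference was -0.25 (SE 0.09, adjusted p = 0.532, unadjusted p = 0.013), and the 6 h level was above the 10 min level by 0.31 (adjusted p = 0.0177), a comparison in which 14.5% of all genes were called higher. Without 6 h replicate 1 that difference was 0.29 and was not called (adjusted p = 0.058).

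At 10 min Gja1 and Gjc1 lay on opposite sides of sham, with no overlap in either. Hcn2 (all libraries higher) and Scn4b (all lower) did not overlap sham at 10 min either. None of these members was called there, and the share of all genes without overlap was not counted. The log2 ratio of Gja1 to Gjc1, which does not depend on scaling, was higher than sham by 0.58 at 10 min with all 3 libraries above, and differed from sham by -0.01, 0.03, 0.20 and -0.04 at 1, 6, 24 and 72 h, where the libraries overlapped. No test was made of this ratio, which was picked out after its values were seen.

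Gja4 and Gja5 encode connexins 37 and 40, found in arterial endothelium, and connexin 40 is also the connexin of atrium and His-Purkinje fibres. Gja4 (ENSMUSG00000050234, chr4:127311421-127314039, minus strand) measured 25.8, 27.4 and 21.1 CPM in sham and 20.9, 27.4 and 20 CPM at 72 h, and all libraries of the series lay between 18.9 and 31.3 CPM. The groups overlapped except at 1 h, whose libraries (27.9, 27.8 and 31.3 CPM) lay above sham. Its change at 72 h was -0.12 under TMM (95% interval -0.42 to 0.18, edgeR adjusted p = 0.474) but 0.47 under library total scaling (adjusted p = 0.00605). The F test over the 5 times, which called 78.4% of all genes, did not call Gja4 (adjusted p = 0.154) or Gja5 (adjusted p = 0.115) and called the other 6 members.

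Gja5 (ENSMUSG00000057123, chr3:96904693-97077416, plus strand) measured 11.9, 12.9 and 13.1 CPM in sham, 9.77 to 15.3 CPM in the 10 min, 1 h and 6 h libraries, 15.6, 12 and 17.5 CPM at 24 h, and 12.6, 22.6 and 14.9 CPM at 72 h. The 24 h and 72 h libraries overlapped sham, and 72 h replicate 2 was the highest of the series. In the 6 h group replicate 1, the library with atrial marker RNA, was the highest (15.0 CPM, against 11.1 and 11.6 CPM), and the change from sham was -0.01 with it and -0.16 without it (adjusted p = 0.65). Its change at 72 h was 0.40 under TMM (95% interval 0.01 to 0.80, edgeR adjusted p = 0.0672). It was called higher under 6 of 27 other settings: library total scaling (0.99, adjusted p = 5.35e-05), no filter on low counts (0.42, adjusted p = 0.0478), at least 10 counts in every library (0.46, adjusted p = 0.0367), limma on log2(FPKM + 1) (0.70, adjusted p = 0.00024) and on log2(FPKM + 0.1) (0.91, adjusted p = 0.000234), and without 72 h replicate 1 (0.57, adjusted p = 0.0139). Both marker scalings, added later, called it too. Without 72 h replicate 2 the change was 0.12. The 72 h level was above the 1 h level by 0.55 (adjusted p = 0.0169), a comparison in which 34.6% of all genes were called higher, though the libraries overlapped. In that comparison Gja4 was called lower (-0.35, adjusted p = 0.0395, no overlap), as was Gjc1 (-0.22, adjusted p = 0.0389, overlapping libraries). The share of all genes called lower there is not given. Exons of Gja5 overlap those of the opposite-strand gene Gpr89 by 165 bases, and the use of strand in counting is not given in the sources used here, so reads of that stretch cannot be told apart.

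The vascular connexins were also set against endothelial markers. Summed pan-endothelial markers were 924 to 1167 CPM at 72 h, below the 1455 to 1589 CPM of sham, while 10 summed arterial endothelial markers were 275 to 382 CPM at 72 h and 294 to 307 CPM in sham. Under TMM, 2 of these 10 arterial markers were called higher and 5 lower at 72 h, with a median log2 fold change of -0.32. Unc5b rose from 57.9 to 115 CPM and Dll4 fell from 39.7 to 20.1 CPM, so the arterial sum mixes both directions. The log2 ratio of Gja5 to the pan-endothelial sum differed from sham by 0.93 at 72 h and that of Gja4 by 0.44, each with all 3 libraries above sham. Relative to the arterial sum, Gja5 differed by 0.32 with all 3 libraries above sham, and Gja4 by -0.17 with overlapping libraries. With libraries scaled to the pan-endothelial markers in the edgeR fit, the 72 h change was 0.95 for Gja5 (adjusted p = 5.43e-05) and 0.43 for Gja4 (adjusted p = 0.00948), both called higher. Of the 10997 genes called there, 81.4% were higher. At 24 h the change under that scaling was 0.49 for Gja5 (adjusted p = 0.0337), where 85.1% of 6106 called genes were higher. The ratios to the arterial sum were not tested.

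**Figure D4:**
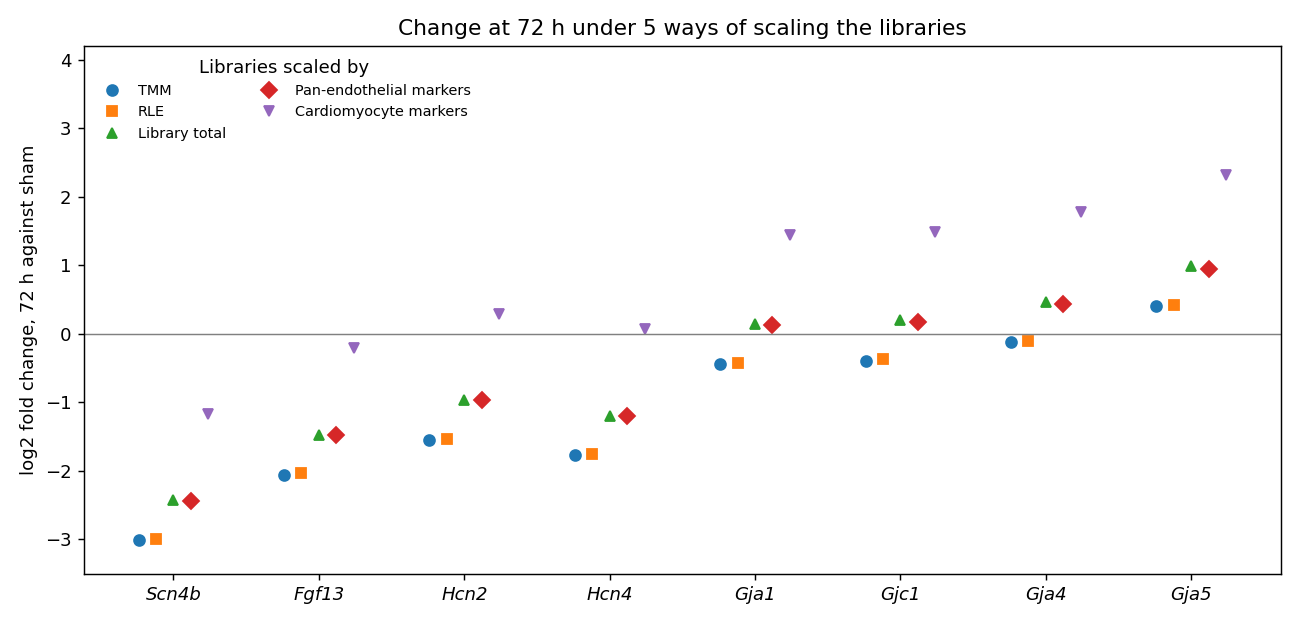
Log2 fold change at 72 h against sham (vertical axis) of the 8 genes (horizontal axis) with libraries scaled by TMM, RLE, library total, summed pan-endothelial markers or summed cardiomyocyte markers. Scn4b is below 0 under all 5 scalings; Fgf13 is too, at -0.21 with cardiomyocyte markers; Hcn2 and Hcn4 are above 0 with cardiomyocyte markers; Gja1, Gjc1 and Gja4 are below 0 under TMM and RLE and above 0 under the other 3; Gja5 is above 0 under all 5.

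For 3 of the connexins, the sign of the 72 h change differed between scalings. The 72 h median over all genes was 0.61 (log2) under library total scaling, against 0.03 under TMM, and 79.9% of called genes were higher, against 51.4%. The falls of Scn4b (-2.43), Fgf13 (-1.47), Hcn4 (-1.20) and Hcn2 (-0.97) were called under library total scaling at 72 h. Scaled to the pan-endothelial markers, they were -2.44, -1.48, -1.21 and -0.96, also called. Scaled to the cardiomyocyte markers, where the median of all genes was 1.90, the 4 connexins were called higher at 72 h, by 1.44 for Gja1, 1.49 for Gjc1, 1.77 for Gja4 and 2.31 for Gja5.

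Ordered by level, the 6 groups gave few separate neighbours. For Scn4b, 72 h and 24 h, and 24 h and 6 h, were called different, whereas 6 h, 1 h, 10 min and sham in rising order were not called between neighbours. For Hcn2 the 1 called step lay between 24 h and 6 h, and for Hcn4 and Fgf13 it lay between 72 h and 24 h. For the 4 connexins no pair of neighbouring levels was called different. Between 6 h and 24 h, 2 members were called lower where 13.7% of all genes were, and between 24 h and 72 h, 5 members were called lower where 26.1% of all genes were.

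The other genes of these pathways give the setting at 72 h. The list of other sodium channel genes also holds the homologous factor genes Fgf11, Fgf12 and Fgf14. Of its 12 genes tested, 2 rose and 4 fell, among them Scn4a, the skeletal muscle pore-forming subunit (log2 fold change -2.15, edgeR adjusted p = 7.81e-06). Scn2a rose from 0.302 to 0.784 CPM (1.34, adjusted p = 0.0271). Of 7 other HCN and pacemaker current genes, 1 rose, the L-type calcium channel gene Cacna1d (1.64 to 6.44 CPM, log2 fold change 1.97, adjusted p = 0.000162), and 4 fell, among them Cacna1c, its ventricular relative (211 to 81.2 CPM, -1.38, adjusted p = 1.06e-07), and the caveolin gene Cav3 (-0.89, adjusted p = 1.36e-05). Under library total scaling 4 genes of the sodium channel list were called higher and 3 lower, and 1 of the pacemaker current genes higher and 2 lower. With cardiomyocyte marker scaling, 8 and 6 were called higher and 0 lower in either list. Of all 16311 genes, 10831 were called at 72 h under TMM, 11854 by library total and 14775 with cardiomyocyte markers. Of the genes called, 51.4%, 79.9% and 98.9% were higher, which applies to the lists below too.

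Of 8 other connexin and pannexin genes tested, 4 rose and 3 fell at 72 h. Panx1, which forms large-pore membrane channels, rose from 2.01 to 22.9 CPM, a log2 fold change of 3.50 (edgeR adjusted p = 6.34e-09). Gjb5, a connexin best known from epithelium, rose from 0.10 to 3.25 CPM (4.98, adjusted p = 4.43e-06). Gja3, the gene of connexin 46, fell from 23.8 to 10.7 CPM (-1.15, adjusted p = 1.25e-05), and Panx2 fell (-1.31, adjusted p = 0.00214). Under library total scaling 4 were called higher and 1 lower (Gja3, -0.56), and with cardiomyocyte marker scaling 6 were called higher and 0 lower.

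Intercalated disc genes, whose products anchor the gap junctions and sodium channels at the cell ends, were lower in 17 of 19 tested and higher in 1 at 72 h, with a median log2 fold change of -0.86. The desmosomal cadherin genes Dsg2 (72.1 to 20.1 CPM, -1.84, edgeR adjusted p = 3.28e-09) and Dsc2 (34.7 to 13.1 CPM, -1.41, adjusted p = 3.33e-08) fell. Xirp2, an actin-binding disc protein gene, rose (306 to 473 CPM, 0.63, adjusted p = 0.0184). Scaled by library total, 10 were called lower and 2 higher, and with cardiomyocyte marker scaling 0 lower and 18 higher. Of the 14775 genes called under the latter scaling, 98.9% were higher.

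Of 15 transcription factor genes known from conduction tissue, 11 fell and 3 rose at 72 h. Tbx5 fell from 24 to 6.42 CPM, a log2 fold change of -1.90 (edgeR adjusted p = 1.39e-08) and Hopx from 225 to 48.7 CPM (-2.21, adjusted p = 2.08e-08). Id2 rose from 6.13 to 31.6 CPM (2.36, adjusted p = 9.1e-06) and Tbx18 from 4.27 to 10.3 CPM (1.27, adjusted p = 4.84e-06). By library total, 7 were called lower and 3 higher, and with cardiomyocyte marker scaling 1 lower (Hopx, -0.36) and 12 higher. At the same time all 10 cardiomyocyte markers were called lower, and 9 of 10 fibroblast and all 10 macrophage and monocyte markers higher. What part these had in the members' changes was not tested beyond the ratios given.

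The genes with the most similar course were found by the root mean square difference of log2 CPM, centred per gene, over the 18 libraries and among 11708 genes. Nearest to Scn4b were Sbk2 (0.28), which is also in the atrial marker list, and Hrc (0.29). Nearest to Fgf13 were Nipsnap2 (0.14) and Ptpn3 (0.16), to Hcn2 D3Ertd751e (0.17) and Lynx1 (0.19), and to Hcn4 Homer2 (0.18) and Kcnn1 (0.20). Nearest to Gja1 were Lyrm4 (0.16) and Dysf (0.17), to Gjc1 Psmc1 (0.09) and Ubxn1 (0.10), to Gja4 St7 (0.14) and Foxk1 (0.14), and to Gja5 Appl1 (0.17) and Ube2e1 (0.18). Between members, the closest pair was Gja4 and Gjc1 (0.24), and among the channel genes it was Hcn4 and Fgf13 (0.27). Each member had non-member genes nearer to it than any other member. Those came from 11708 genes against few members, so this says nothing about the members. The points share library depth and tissue composition, so likeness is a description of these libraries.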

How the data were processed

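The authors deposited whole-number read counts per Ensembl gene and FPKM values, which are the same counts divided by gene length and library total. Per the submitters' processing notes, cutadapt 1.18, HISAT2 2.1.0, featureCounts and build mm10 were used. Per the labels' protocols, libraries were poly(A)-selected with oligo(dT). Series and sample tables were equal (0 values differed), and every value column had a sample (0 unmatched). The FPKM columns of 6 h replicates 2 and 3 hold each other's counts. Symbols and coordinates are from GENCODE M21 by Ensembl ID (94 of 30583 had none), promoters from RefSeq GRCm38.p6.

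The deposited counts went into edgeR 4.0.16 (R 4.3.3): filterByExpr (16311 genes kept, 14272 removed), TMM, a robust quasi-likelihood fit with 1 mean per group over all 18 libraries, two-sided tests and Benjamini-Hochberg adjustment within each contrast. The standard error is the log2 fold change divided by the root of F. Intervals are 95%. A called gene has an adjusted p under 0.05. The scripts were tested on simulated data. Alternatives used DESeq2 1.42.0, limma 3.58.1 on log2(FPKM + 1) and log2(FPKM + 0.1), other scalings, filters and samples, and each library left out in turn. Scalings to marker genes, and comparisons between times without 6 h replicate 1, were added after the data were seen. Deviations from the group means were correlated between same-numbered libraries. In no pair of groups did all these correlations pass 0.1, so numbers were not treated as pairs. They ran from 0.05 to 0.10 for 6 h and 1 h, and from -0.26 to 0.12 for 24 h and 6 h. Families and ratios between members use CPM per kilobase of exon within a library, and ratios to summed markers use CPM.

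Members and gene lists were chosen with earlier results of these data known. Named genes are all members, for each pathway list the 2 genes called higher and the 2 called lower at 72 h with the smallest adjusted p, and the 2 genes of closest course to each member (mean count at least 50). Other named genes were chosen after their values were seen. Some genes that the rule names are not reported here. Of the list genes 4 were not in the table.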

Additional observations from a re-analysis of the deposited data

Results flagged for a closer look

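Because times share the sham libraries, a difference between 2 times' changes from sham is the contrast between those times, tested with edgeR. Between 6 h and 24 h it passed for Scn4b (log2 difference -1.48) and Hcn2 (-1.27). Between 24 h and 72 h it passed for Scn4b (-0.91), Hcn4 (-0.98), Fgf13 (-1.59), Gja1 (-0.68) and Gjc1 (-0.44). These are TMM values, and the last 2 sit beside a change from sham at 72 h whose direction depends on scaling.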

How the results depend on the processing

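Under all 27 other settings of test, scaling, filter and libraries (marker scalings not among them), Scn4b and Hcn2 at 24 h and 72 h, and Hcn4 and Fgf13 at 72 h, were called lower. The number of members called was 0 at 10 min and 1 h under all of them. At 6 h it was 0, not 1, without the filter on low counts, with a replicate block (Scn4b -0.62, adjusted p = 0.0595) and with cardiomyocyte marker scaling (0 to 1 with 1 library left out). At 24 h it was 4, all lower, under TMM (2 to 4 with 1 library left out). It was 3, all lower, without the filter on low counts, and 2, both lower, with only the 6 libraries compared. With cardiomyocyte marker scaling it was 7, of which 5 were higher and 2 lower. Under library total scaling and in both limma fits the 4 were 1 higher and 3 lower, and with pan-endothelial marker scaling 2 higher and 2 lower. At 72 h it was 6, all lower, under TMM (6 to 7 with 1 library left out). Library total, pan-endothelial marker scaling and both limma fits gave 2 higher and 4 lower, cardiomyocyte marker scaling 4 higher and 1 lower, and either other filter 1 higher and 6 lower. Signs reversed in the following cases, and the cause was not tested. Under library total scaling, limma on log2(FPKM + 1) and limma on log2(FPKM + 0.1), the changes were -0.019, -0.018 and -0.018 for Gja1 and -0.051, -0.043 and -0.051 for Gjc1 at 6 h, and 0.080, 0.061 and 0.064 for Gja4 at 24 h. At 72 h they were 0.146, 0.147 and 0.150 for Gja1, 0.469, 0.432 and 0.456 for Gja4, and 0.194, 0.162 and 0.188 for Gjc1. Scaled to pan-endothelial markers they were -0.038 for Gja4 and -0.092 for Fgf13 at 10 min, 0.023 for Hcn2 at 1 h, -0.110 for Gja1, -0.070 for Gja4 and -0.146 for Gjc1 at 6 h, 0.102 for Gja4 at 24 h, and 0.131 for Gja1, 0.431 for Gja4 and 0.177 for Gjc1 at 72 h. Scaled to cardiomyocyte markers they were 0.107 for Gja5 at 6 h, 0.789 for Gja4 and 0.362 for Fgf13 at 24 h, and 0.287 for Hcn2, 0.070 for Hcn4, 1.44 for Gja1, 1.77 for Gja4 and 1.49 for Gjc1 at 72 h. With 1 library left out, Gja4 ran from -0.036 to 0.146 and Fgf13 from -0.044 to 0.059 at 10 min, Gja5 from -0.161 to 0.070 at 6 h, and Gja4 from -0.264 to 0.0051 at 24 h. Without 6 h replicate 1, the difference of Gjc1 between 24 h and 6 h was 0.0068, against -0.0068, and that of Gja5 between 6 h and 1 h was -0.017, against 0.131. Groups of 3 limit precision: under TMM alone, the 95% interval of the Gja5 change at 72 h ran from 0.01 to 0.80, while library total, pan-endothelial and cardiomyocyte marker scaling gave 0.99, 0.95 and 2.31.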
